A study of Mus musculus with 93 samples.

Results

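Chromatin is set up by enzymes that add or remove methyl groups on DNA, add or remove methyl and acetyl groups on histones, and slide or exchange nucleosomes. The genes described here are 94 of these chromatin regulators, found among 97 gene symbols of the count tables by fixed name patterns: the Kdm, Kmt, Kat and Setd families, Ezh1 and Ezh2, the numbered Hdac genes, the Dnmt and Tet genes, the Smarc and Chd families, and Srcap, Ep400, Hat1 and Uhrf1. A symbol was kept when its mean reached 1 CPM (counts of a gene scaled to a common library total) in at least 1 of the 12 groups. The rule left out 3 symbols, Dnmt3bos, Kat2b-ps and Kdm6bos, whose highest group means were 0.355, 0.658 and 0.848 CPM. In all, 19740 of 24047 listed genes reached that level.

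RNA from mouse ovary was sequenced with the Smart-seq2 protocol as 42 granulosa and 51 oocyte libraries from wild type mice and mice lacking estrogen receptor beta, encoded by Esr2, at 4 weeks, 7 weeks and 6 months of age. For granulosa cells there were 7 libraries of each genotype aged 4 weeks, 5 of each aged 7 weeks, and 12 wild type with 6 knockout libraries aged 6 months. For oocytes the youngest age had 12 wild type with 7 knockout libraries, the middle age 5 with 12, and the oldest 11 with 4. The labels give no strain, no allele of the knockout and no number of cells or animals per library. They do not say whether libraries came from separate mice, so p-values measure the spread between libraries, which may be partly technical. Library totals ran from 702726 to 7751953 counts, and that number limits the precision of a low gene. Esr2 was checked first: its lowest wild type library had 5.69 CPM in granulosa cells and 39.3 CPM in oocytes, while no knockout library exceeded 0.598 CPM.

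Dnmt1, guided by Uhrf1 to newly replicated DNA, copies methylation onto the daughter strand, whereas Dnmt3a and Dnmt3b write it anew. In growing oocytes Dnmt3a works with Dnmt3l, a partner without catalytic activity of its own, to place the methylation from which maternal imprints are inherited. Tet enzymes oxidise methylcytosine, and Tet3 is stored in the egg and acts on the paternal genome after fertilisation. Granulosa cells, which surround and feed the oocyte, keep dividing and then differentiate, and Esr2 is their main estrogen receptor.

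The 94 members fell into 12 genes of DNA methylation, 9 histone acetyltransferases, 11 histone deacetylases, 18 histone demethylases, 18 histone methyltransferases and 26 remodellers. Of these, 18 were not listed in at least 1 of the 6 tables, so comparisons that join tables leave them out. Chd5, Dnmt3c, Dnmt3aos and Dnmt3a-ps1 were not listed in the 3 granulosa tables, and Kat2b, Setd7, Hdac7, Hdac11 and Kdm4dl were not listed in the 3 oocyte tables. Values of the pseudogenes and near copies (Dnmt3a-ps1, Dnmt3l-ps1, Smarca5-ps, Smarce1-ps1 and Kdm4dl) and of Dnmt3aos, which overlaps Dnmt3a on the other strand, are uncertain because the counting could split or share their reads.

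The start regions of the members were rich in CG, the pair of bases that DNA methylation acts on. RefSeq windows of 300 bases (250 before and 50 after an annotated start, GRCm38.p6) were found for 71 of 94 members, 100 windows in all. Their median was 23.5 CG per window, against 7 over 32851 windows of all genes and 13 over 21262 windows of protein-coding genes. Estrogen receptors bind the palindrome GGTCANNNTGACC: on either strand it was in 0 of the members' windows and in 0.0700% of all windows. Its repeated element GGTCA, which that palindrome contains, was in 37.0% of the members' windows and 40.5% of all windows. The letters TATAAA were in 3.0% against 13.6%, and the E-box CACGTG in 7.0% against 7.15%. These are letter matches in short windows and say nothing of binding. Of the windows below, those of Dnmt1, Uhrf1 and Dnmt3l belong to DNA methylation genes that were high in oocytes, and those of Smarca1 and Kdm5b to the members with the smallest p-values between genotypes at 4 weeks and 6 months. They are written 5′ to 3′ on the gene's strand, with each CG in capitals; the first 250 bases lie upstream of the annotated start and the last 50 in the first exon.
Dnmt1, upstream start, chr9:20959839-20960138, minus strand: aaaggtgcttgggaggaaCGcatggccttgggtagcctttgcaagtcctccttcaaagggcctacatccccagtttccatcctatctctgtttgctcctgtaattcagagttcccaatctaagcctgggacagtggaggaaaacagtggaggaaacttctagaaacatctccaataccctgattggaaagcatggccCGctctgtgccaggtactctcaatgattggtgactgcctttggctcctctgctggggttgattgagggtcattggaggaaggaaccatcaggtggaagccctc
Dnmt1, downstream start, chr9:20952574-20952873, minus strand: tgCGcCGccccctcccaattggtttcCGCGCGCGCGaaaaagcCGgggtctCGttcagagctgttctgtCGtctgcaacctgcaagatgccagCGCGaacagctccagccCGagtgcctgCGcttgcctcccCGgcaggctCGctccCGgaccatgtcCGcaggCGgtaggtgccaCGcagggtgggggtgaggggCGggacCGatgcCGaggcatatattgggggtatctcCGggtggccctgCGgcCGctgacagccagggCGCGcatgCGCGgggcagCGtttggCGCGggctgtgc
Uhrf1, chr17:56304063-56304362, plus strand: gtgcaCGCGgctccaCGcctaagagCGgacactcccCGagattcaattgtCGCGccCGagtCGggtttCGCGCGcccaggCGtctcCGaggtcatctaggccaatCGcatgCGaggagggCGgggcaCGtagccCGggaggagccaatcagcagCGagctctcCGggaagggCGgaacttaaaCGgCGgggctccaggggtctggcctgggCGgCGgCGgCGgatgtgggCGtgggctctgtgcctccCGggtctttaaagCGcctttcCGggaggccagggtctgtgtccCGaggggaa
Dnmt3l, chr10:78042037-78042336, plus strand: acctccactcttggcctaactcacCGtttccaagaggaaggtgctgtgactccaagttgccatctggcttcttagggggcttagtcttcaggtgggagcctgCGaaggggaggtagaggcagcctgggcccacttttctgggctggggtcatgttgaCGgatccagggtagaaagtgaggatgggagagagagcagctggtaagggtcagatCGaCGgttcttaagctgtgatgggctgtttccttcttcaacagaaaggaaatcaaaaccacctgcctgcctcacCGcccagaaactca
Smarca1, chrX:47892564-47892863, minus strand: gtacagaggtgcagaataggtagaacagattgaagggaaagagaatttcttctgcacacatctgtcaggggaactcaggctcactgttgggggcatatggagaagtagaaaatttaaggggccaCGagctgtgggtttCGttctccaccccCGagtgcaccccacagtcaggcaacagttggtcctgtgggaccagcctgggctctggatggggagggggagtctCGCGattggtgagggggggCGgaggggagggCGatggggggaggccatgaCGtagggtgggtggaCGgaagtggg
Kdm5b, chr1:134559928-134560227, plus strand: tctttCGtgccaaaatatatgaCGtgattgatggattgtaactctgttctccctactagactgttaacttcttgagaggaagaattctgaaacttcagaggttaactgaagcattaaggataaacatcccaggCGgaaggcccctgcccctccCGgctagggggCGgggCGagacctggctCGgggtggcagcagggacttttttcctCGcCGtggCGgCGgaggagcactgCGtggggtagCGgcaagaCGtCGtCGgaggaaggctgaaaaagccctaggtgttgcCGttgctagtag
The upstream Dnmt1 window held 2 CG and the downstream one 33. The windows of Uhrf1, Dnmt3l, Smarca1 and Kdm5b shown here held 33, 6, 9 and 17. RefSeq starts not shown gave a further Dnmt1 window with 12 CG, a further Uhrf1 window with 12, and Dnmt3l windows with 4 and 3. Counts per gene do not show which start was used.

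Most DNA methylation genes were far higher in oocytes than in granulosa cells. Of 8 that could be compared at every age, 6 were higher in wild type oocytes at all 3 ages (Dnmt1, Dnmt3a, Dnmt3b, Dnmt3l, Tet3 and Uhrf1), 1 was higher in granulosa cells (Tet2), and Tet1 did not pass at every age. Over all genes 30.1% were higher in oocytes and 37.3% in granulosa cells by the same rule. Uhrf1 had a median of 928.1 CPM (549.2 to 1374) in 4 week, 737.3 (573.5 to 952.5) in 7 week and 621.1 (275.3 to 797.1) in 6 month wild type oocytes. In the granulosa groups of either genotype its medians lay between 8.19 and 16.09 CPM, and its highest library had 33.33. No granulosa library reached the lowest oocyte library. The fitted log2 difference, granulosa minus oocyte, was −6.66 ± 0.38 (SE; adjusted p = 5.01e-18) at 4 weeks, −5.82 ± 0.33 (adjusted p = 2.75e-15) at 7 weeks and −5.95 ± 0.20 (adjusted p = 6.02e-26) at 6 months.

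Dnmt1 had similar medians at the 3 ages within each cell type. Its group medians lay between 890.7 and 980 CPM in all 6 oocyte groups, and between 54.02 and 76.91 CPM in all 6 granulosa groups. The difference between cell types in wild type was −4.16 ± 0.20, −4.36 ± 0.25 and −4.51 ± 0.15 on the log2 scale at 4 weeks, 7 weeks and 6 months. Neither genotype nor age moved Dnmt1 past the threshold in either cell type. Removing each library's trend of counts with gene length made it higher in wild type oocytes at 6 months than at 7 weeks (0.5, adjusted p = 0.0239, in place of 0.157, adjusted p = 0.515).

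Dnmt3l was at very low levels in granulosa cells. Its granulosa medians ran from 0.245 to 1.27 CPM and its highest granulosa library had 5.33, while its lowest oocyte library had 50.19. Wild type oocyte medians were 89.18 CPM at 4 weeks, 78.51 at 7 weeks and 113.7 at 6 months. In 7 week wild type oocytes the 5 libraries had 89.98, 69.19, 93.28, 55.55 and 78.51 CPM, and in 6 month knockout oocytes the 4 libraries had 219.1, 161.9, 109.2 and 100.2. Every 6 month knockout library thus lay above every 7 week wild type library, but these groups differ in both age and genotype. The share of all genes separated in this way is not given here, so the separation is not read as a result. Groups matched for genotype or age overlapped with the 6 month knockout libraries. The 7 week knockout oocytes ranged from 50.26 to 116.3 CPM and the 6 month wild type oocytes from 50.19 to 142.2. Dnmt3l did not pass between genotypes in oocytes at any age.

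Dnmt3a, the partner of Dnmt3l, was high in oocytes and present in granulosa cells. Oocyte medians lay between 490.1 and 752.7 CPM and granulosa medians between 79.59 and 122 CPM, with a wild type difference of −2.56 ± 0.18 to −3.06 ± 0.28. Dnmt3b had the same direction: its medians ran from 22.64 to 39.59 CPM in oocytes and from 2.80 to 9.80 CPM in granulosa cells. Dnmt3c, which silences young transposons in the male germ line, had medians of 2.30 to 4.58 CPM in the 6 oocyte groups. Dnmt3aos had oocyte medians of 1.81 to 4.80 CPM and Dnmt3a-ps1 of 0.357 to 1.74. Dnmt3l-ps1, listed in the 4 and 7 week granulosa tables, stayed at medians of 0 to 1.03 CPM.

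The 3 Tet genes had 3 different patterns. Tet3 was higher in oocytes, with wild type medians of 1275 CPM (821.1 to 2287) at 4 weeks, 1476 (1267 to 2242) at 7 weeks and 463.6 (184.4 to 1317) at 6 months; in granulosa cells its medians were 37.44 to 94.41. Tet2 was the reverse, with granulosa medians of 17.72 to 29.8 CPM and oocyte medians of 2.67 to 4.92, and a wild type difference of 2.78 ± 0.46, 1.70 ± 0.47 and 1.92 ± 0.27. Tet1 was low in both, at medians of 8.00 to 13.52 CPM in granulosa cells and 10.43 to 15.63 in oocytes; its difference passed at 4 weeks and 6 months and was −0.49 ± 0.47 (adjusted p = 0.341) at 7 weeks.

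**Figure D1:**
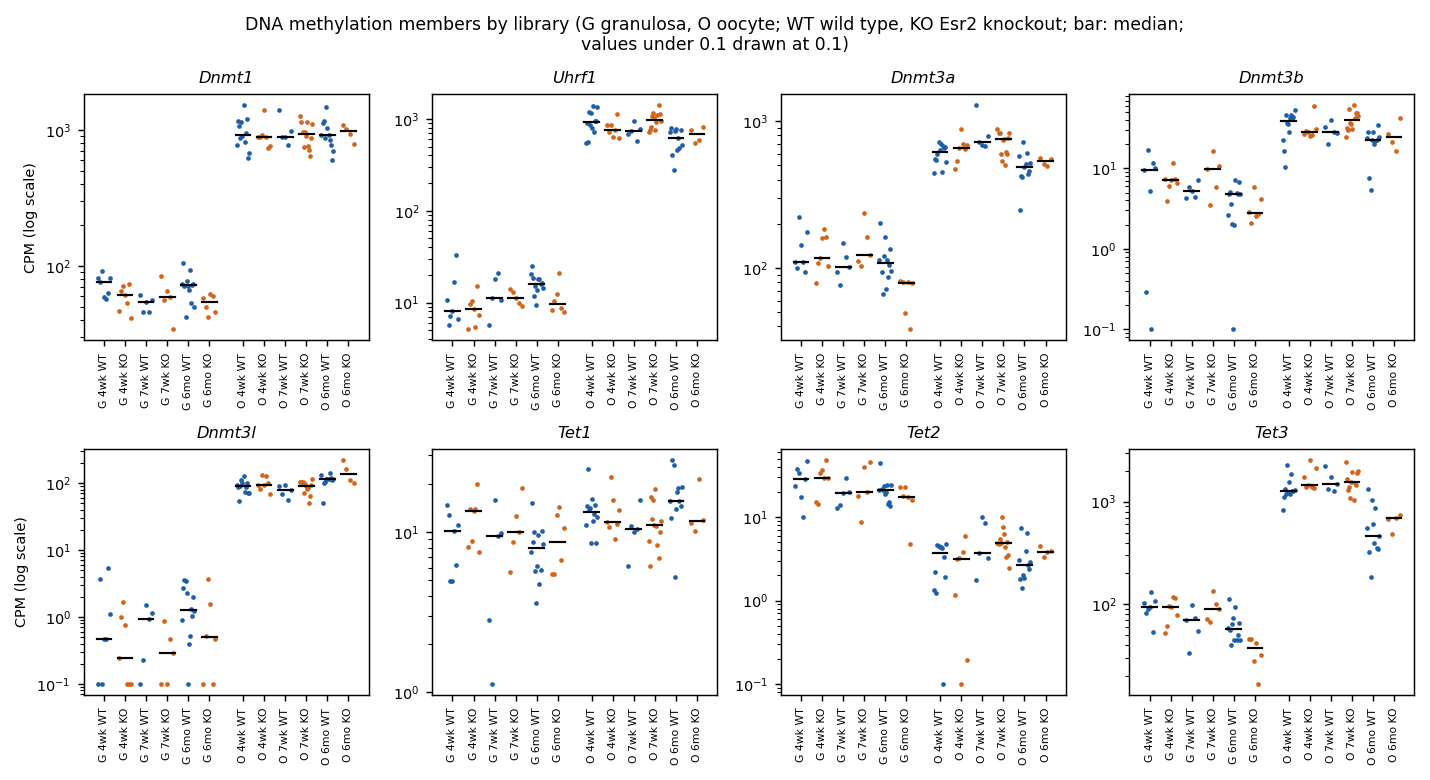
CPM of 8 DNA methylation genes on a log axis, 1 point per library, by cell type, age and genotype; black bars are group medians and values under 0.1 CPM are drawn at 0.1. Uhrf1, Dnmt1, Dnmt3a, Dnmt3b, Dnmt3l and Tet3 sit higher in the 6 oocyte groups, Tet2 sits higher in the 6 granulosa groups, and Tet3 is lower in 6 month oocytes (median 463.6 CPM in wild type) than at 4 or 7 weeks.

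Across all roles, 53 of 76 members differed in 1 direction at all 3 ages in wild type, 22 higher in granulosa cells and 31 higher in oocytes. A similar share of all genes did so: 67.5% of 11055, with 37.3% higher in granulosa cells and 30.1% higher in oocytes. The median log2 difference over all genes was 0.35, 0.44 and 0.09 at the 3 ages, so values near that shift say little. Knockout libraries, which share none with wild type but were fitted in the same models, gave 56 of 76 (24 and 32) against 69.4% of all genes (36.6% and 32.8%). The 2 genotypes shared 21 of the granulosa-high members (95.5% of the wild type list, 87.5% of the knockout list) and 31 of the oocyte-high members (100% and 96.9%). Kdm3b was called in wild type alone, and Chd1, Kdm5c, Smarcc2 and Hat1 in knockout alone; the difference between genotypes was not tested for these.

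Histone methyltransferases split between the cell types, with 6 higher in granulosa cells, 7 higher in oocytes and 4 in neither. The largest oocyte difference among them at all 3 ages, by its weakest age, was that of Ezh2, the catalytic subunit of a Polycomb repressive complex. Its wild type medians were 345.1, 528.2 and 282.3 CPM in oocytes and 25.06, 22.87 and 28.79 CPM in granulosa cells at 4 weeks, 7 weeks and 6 months, a difference of −4.33 ± 0.26, −4.64 ± 0.32 and −4.23 ± 0.16. Its paralog Ezh1 did not differ past the threshold at any age: medians were 115.3, 134.9 and 119.3 CPM in granulosa cells and 101.9, 127 and 71.58 CPM in oocytes. The fitted differences were −0.22, 0.04 and −0.06. Fits rescale the libraries of unlike cell types and CPM here do not, so the 6 month medians and the fit need not match. Granulosa cells had the higher levels of Kmt5c, a histone methyltransferase of silent chromatin, with wild type medians of 55.8, 35.09 and 29.71 CPM against 0.273, 1.07 and 0 CPM (5.42 ± 0.55, 5.22 ± 0.73 and 5.23 ± 0.51). Its relative Kmt5b went the same way, at 4.42, 2.83 and 3.47. Kmt2a, a histone methyltransferase known from leukaemia fusions, had granulosa medians of 108.9, 71.13 and 71.01 CPM and oocyte medians of 0, 0.802 and 0 (7.38 ± 0.56, 4.09 ± 0.68 and 6.12 ± 0.47). The related Kmt2b, Kmt2c and Kmt2d were all higher in oocytes, with Kmt2c at medians of 322.5, 638.2 and 162.7 CPM against 92.13, 64.59 and 64.34. Setd4 was oocyte-high as well, by −3.22 ± 0.38, −3.02 ± 0.42 and −4.79 ± 0.22.

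Demethylases also split, 5 higher in granulosa cells and 7 higher in oocytes. Kdm1b, which demethylates histones in oocytes and is needed there for maternal imprints, had oocyte medians of 43.44, 66.97 and 32.8 CPM and granulosa medians of 3.73, 5.57 and 5.12 (−3.76 ± 0.40, −3.92 ± 0.45 and −3.91 ± 0.30). Its paralog Kdm1a did not pass at any age, at 0.32 ± 0.33, −0.64 ± 0.30 and 0.23 ± 0.21. Kdm2b, which binds unmethylated CG-rich DNA, differed by −3.73 ± 0.28, −4.68 ± 0.41 and −4.16 ± 0.21. The other oocyte-high demethylases were Kdm6a and Kdm6b, which remove the Polycomb mark, Kdm4a, Kdm7a and Kdm8. On the granulosa side were Kdm4b (5.69 ± 0.45, 4.41 ± 0.51 and 5.40 ± 0.45), Kdm5a (5.24 ± 0.40, 3.50 ± 0.41 and 4.48 ± 0.35), Kdm3a (3.89, 3.23 and 4.11) and Kdm5b (3.06, 3.33 and 2.44). Kdm4b had medians of 53.11, 56.32 and 73.7 CPM in wild type granulosa cells and 0.777, 2.99 and 0.453 in oocytes.

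Enzymes of histone acetylation were called in both directions. Of 8 acetyltransferases, 4 were higher in oocytes (Kat6a, Kat6b, Kat7 and Kat14) and 2 in granulosa cells (Kat2a and Kat5). Kat6b had wild type medians of 211.5, 317 and 124.3 CPM in oocytes and 29.68, 31.31 and 30.05 in granulosa cells. Of 6 deacetylases, 3 were higher in granulosa cells (Hdac1, Hdac3 and Hdac4), 0 were higher in oocytes, and Hdac2, Hdac6 and Hdac8 did not pass at all 3 ages. Over all genes 37.3% were higher in granulosa cells and 30.1% in oocytes. Hdac5, Hdac7, Hdac9, Hdac10 and Hdac11 were not listed at every age and could not be compared. Hdac9 had medians of 2.72 to 8.02 CPM in oocytes and 0 to 0.501 in granulosa cells, while Hdac5, Hdac7, Hdac10 and Hdac11 had higher medians in granulosa cells. Hdac1 had medians of 64.76, 79.68 and 70.68 CPM in granulosa cells and 5.17, 4.21 and 3.59 in oocytes (3.27 ± 0.28, 4.20 ± 0.43 and 3.399 ± 0.299). Hdac2, the paralog with which Hdac1 shares its complexes, differed by 0.01 ± 0.31, −0.15 ± 0.40 and 0.03 ± 0.22. Its unscaled 6 month wild type medians were 54.71 CPM in granulosa cells and 24.7 CPM in oocytes, so the lack of a difference rests on the scaling of the fit.

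Remodellers gave 5 granulosa-high, 7 oocyte-high and 10 undecided members. Chd7 stood out in oocytes, with wild type medians of 239.7, 341.2 and 116.6 CPM against 13.6, 11.76 and 10.42 in granulosa cells (−4.35 ± 0.28, −5.27 ± 0.45 and −4.11 ± 0.27). Chd3, a nucleosome remodelling and deacetylase subunit, stood out in granulosa cells (5.13, 2.96 and 4.04), as did Chd2 (3.72, 2.91 and 3.69). The 2 alternative motors of the SWI/SNF complex differed: Smarca2 was higher in oocytes (−1.89, −2.60 and −2.67), and Smarca4 was not called at every age (0.86, 0.47 and 0.94). The core subunits Smarcb1 and Smarcc1 were higher in granulosa cells.

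**Figure D2:**
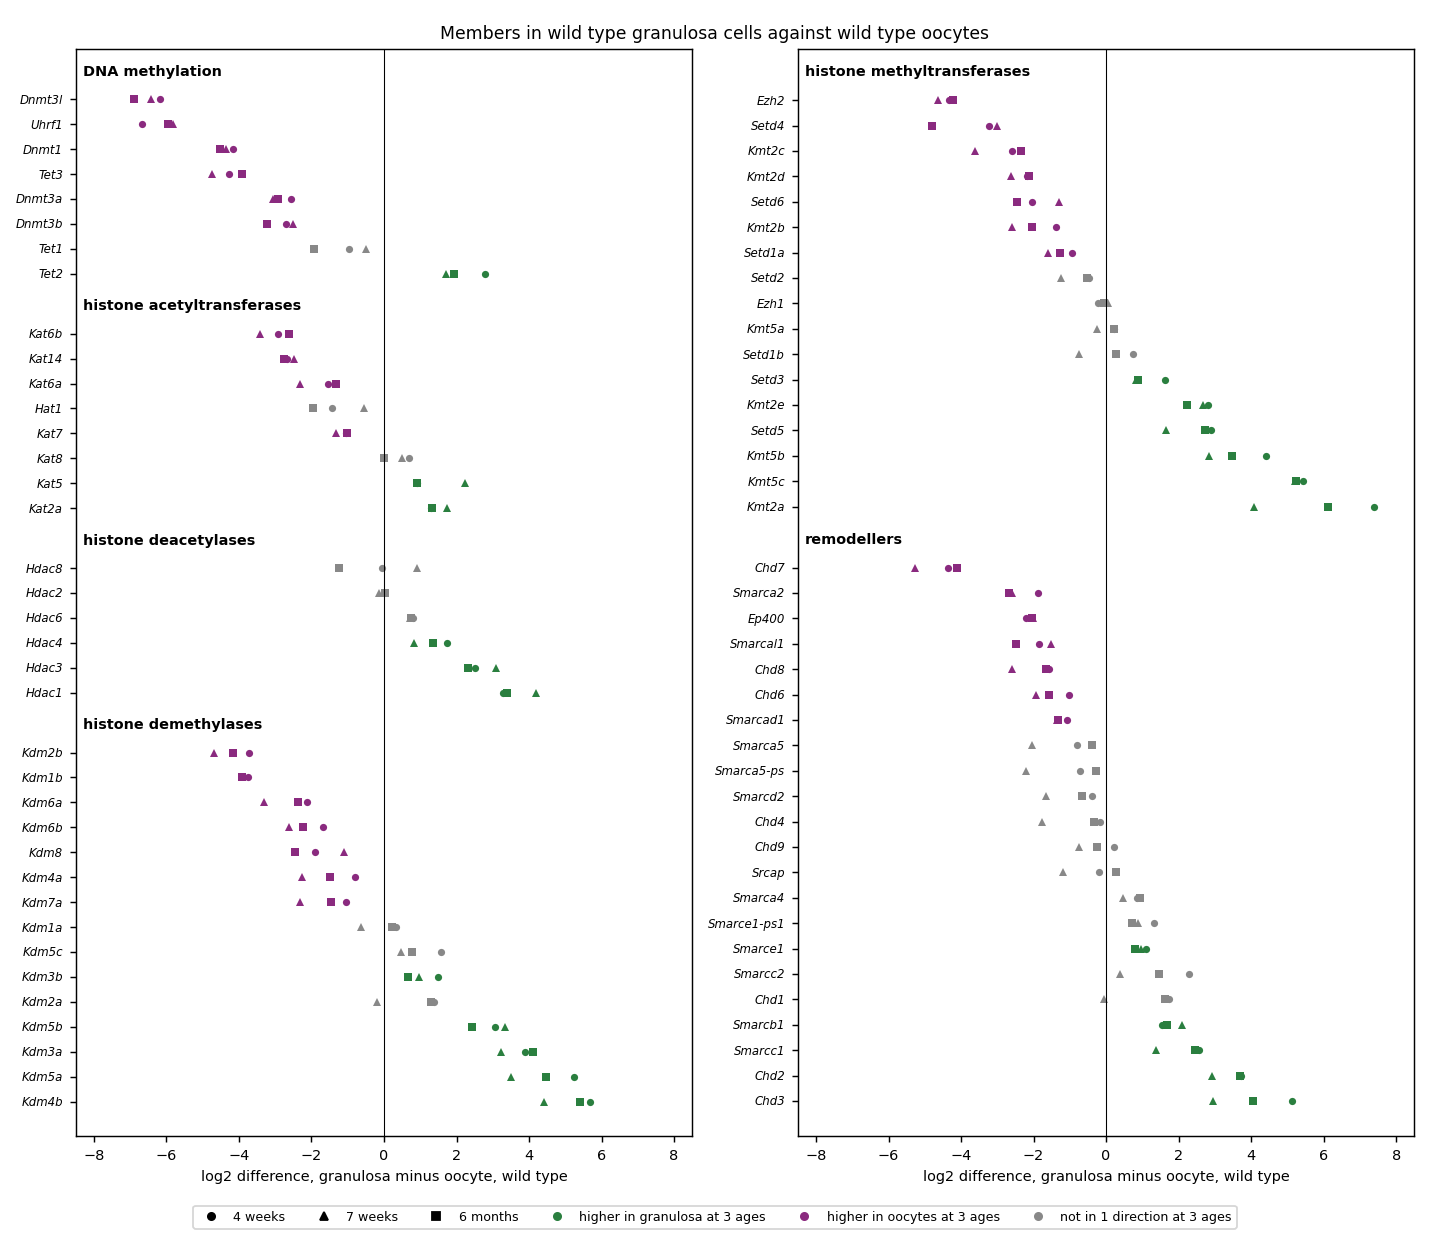
Log2 difference between wild type granulosa cells and wild type oocytes for the 76 members tested at every age, by role, with 1 symbol per age; positive values are higher in granulosa cells and colour marks members past the threshold in 1 direction at all 3 ages. Dnmt3l and Uhrf1 lie farthest to the left, Kmt2a, Kdm4b and Kmt5c farthest to the right, and Ezh1 and Hdac2 near 0.

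Levels of different genes were compared only per kilobase of exon, as the mean of the 3 wild type groups. In oocytes the highest members were Uhrf1 at 179 and Dnmt1 at 132 CPM per kb, followed in other roles by Ezh2 (67.17), Chd4 (40.5), Hat1 (38.69), which acetylates newly made histones, and Kdm6b (26.31); Hdac2 led the deacetylases at 8.31. In granulosa cells the range was narrower: Smarca4 was highest at 39.5 CPM per kb, then Hdac3 (35.02), Smarcb1 (34.55), Chd4 (29.06), Kmt2e (23.09), Hat1 (20.83), Hdac1 (20.27), Kat5 (19.56) and Kdm1a (18.98), while Dnmt1 led its role at 8.91.

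Markers of the other cell type were counted in both kinds of library, at lower sums than in their own cell type but unevenly between libraries. The 12 granulosa markers summed to 1888 to 6501 CPM in granulosa libraries and 43.64 to 417.8 in oocyte libraries, where Foxl2, Fshr, Amh, Amhr2, Inhbb and Wt1 were at 0 and the source of the others was not tested. The 14 oocyte markers summed to 13740 to 43450 CPM in oocyte libraries and 7.12 to 904.7 in granulosa libraries, where Figla was at 0. Their highest granulosa value, 904.7, was in 4 week wild type library 6, which also had the highest granulosa Uhrf1 (33.33 CPM). Without the granulosa libraries at 100 CPM or more of these markers, an alternative chosen after the data were seen, 49 of the members differed at all 3 ages in wild type (16 granulosa-high and 33 oocyte-high). The share of all genes under that setting is not given here, so these counts are not read as a result about the members.

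The length of the genes moved with the members as a group. Exons of the members sum to a median of 6874 bases, against 3578 for all genes at 1 CPM or more. In each library the log2 deviation of every gene from its cell type median was ranked against exon length. Spearman's rho over genes, which are not independent replicates, ran from −0.51 to 0.44 across libraries. Its group median was −0.35 in 6 month wild type oocytes and −0.30 in 6 month knockout oocytes, against 0.22 and 0.19 at 7 weeks; in granulosa cells it was −0.11 in wild type and −0.29 in knockout at 6 months, and −0.05 and 0.16 at 7 weeks. The members' median deviation moved in the same direction across these groups: −0.51 and −0.43 in 6 month oocytes, 0.49 and 0.23 in 7 week oocytes, −0.11 and −0.47 in 6 month granulosa cells and 0.05 and 0.15 in 7 week granulosa cells. Where members passed, counts below are therefore given also with the length trend of each library removed. The part of RNA quality or of library preparation in this trend was not tested.

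**Figure D3:**
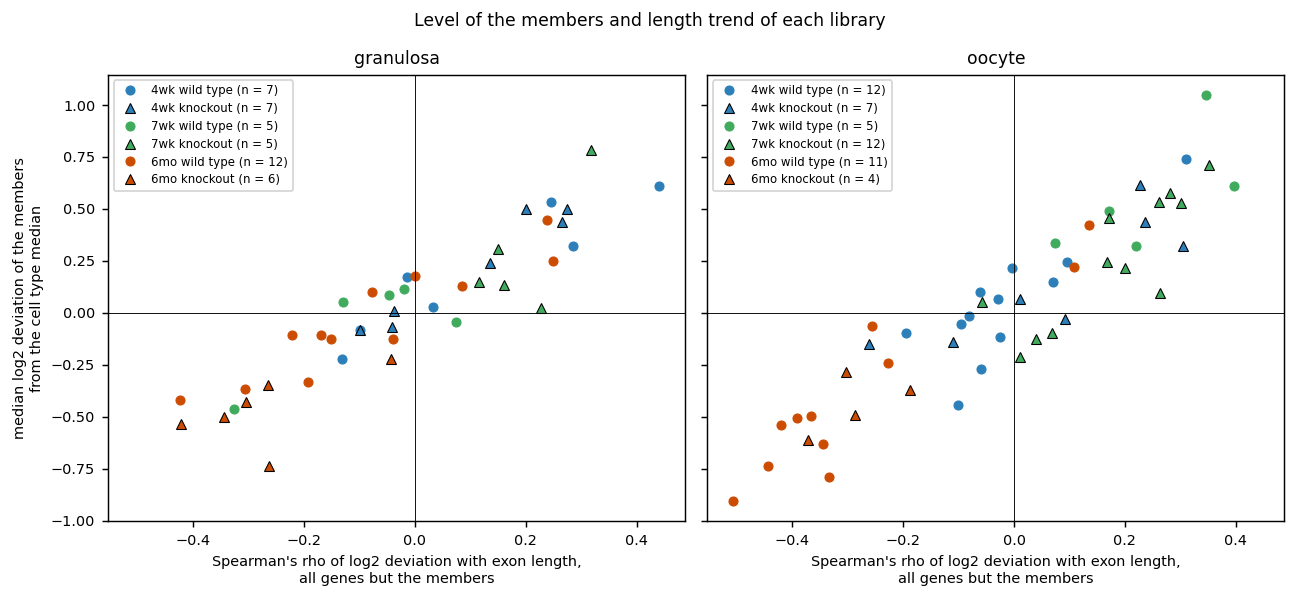
Median log2 deviation of the members from the cell type median (vertical axis) against the library's length trend over all other genes (horizontal axis), 1 point per library, coloured by age with triangles for knockout. Libraries in which long genes were low had low members in both cell types: 6 month knockout granulosa libraries (medians −0.28 and −0.47) and most 6 month oocyte libraries sit at the lower left.

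Between genotypes, 4 week granulosa cells differed in 1 of 85 members tested, against 2.36% of 12161 genes (1.39% lower). That member was Smarca1, the motor of an ISWI remodelling complex. It ranged from 51.32 to 204.9 CPM (median 116.1) in 7 wild type libraries and from 23.35 to 62.35 (median 40.42) in 7 knockout libraries. The ranges overlapped at their edges, and the log2 difference was −1.47 ± 0.29 (adjusted p = 0.00495). It stayed between −1.59 and −1.31 and past the threshold in each of 14 fits without 1 library, and it was again the member called with the length trend removed (1 of 85, against 2.69% of all genes). The mural and luteal markers, among which are Lhcgr, Cyp11a1 and Star, summed to a median of 6763 CPM in wild type and 2422 in knockout at this age; their part in the Smarca1 result was not tested. In such libraries fewer cells of a type and less RNA per cell cannot be told apart. Leaving out wild type library 7 gave 2 members called.

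At 7 weeks 0 of 84 members passed in granulosa cells, against 0.892% of 12002 genes, in edgeR and 1 in DESeq2. At an unadjusted p under 0.05 there were 22, or 26.2% of those tested, against 18.4% of all genes. The members' median log2 difference was 0.32, against 0.02 over all genes, and 0.04 with the length trend removed. Knockout and wild type libraries did not overlap for 4 members (3 higher, 1 lower), or 4.76% of those tested, close to the 4.97% of all genes tested. Smarcc1 had 71.15, 49.99, 123.9, 90.34 and 95.76 CPM in wild type and 170.8, 125.7, 336.1, 130.3 and 151.6 CPM in knockout (1.01 ± 0.31, adjusted p = 0.131). Hdac3 had 146.6, 167.4, 174.4, 168.8 and 127.7 CPM in wild type and 127.4, 112.6, 103, 127 and 105.3 CPM in knockout, all lower. Setd3, whose known substrate is actin, and Ep400 had all 5 knockout libraries above all 5 wild type libraries. None of these 4 members passed the threshold, and with a share close to that of all genes their separation is not read as a result. Mural and luteal markers summed to a median of 10260 CPM in wild type and 3586 in knockout at this age; their part in these values was not tested.

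At 6 months 18 of 86 members passed in granulosa cells, 1 higher and 17 lower in knockout, against 12.6% of 12505 genes (6.59% higher and 6.04% lower). The members' median log2 difference was −0.28, against −0.02 over all genes. The 17 that fell were 6 demethylases, 5 remodellers, 3 methyltransferases, 2 DNA methylation genes and 1 acetyltransferase; of 10 deacetylases none passed, and their median was 0.37. Kdm5b, a histone demethylase that acts at promoters, had the smallest p: it ranged from 87.23 to 220.6 CPM (median 131.4) in 12 wild type and from 60.75 to 113 (median 71.02) in 6 knockout libraries, a difference of −0.78 ± 0.15 (adjusted p = 0.00266). The 6 knockout libraries were each under the median of wild type. Kdm1a, the demethylase of several repressor complexes, went from a median of 91.64 CPM (41.7 to 155) to 43.33 (38.69 to 66.97), −0.91 ± 0.22 (adjusted p = 0.00983). Ezh2 went from 28.79 (19.79 to 44.97) to 16.68 (11.93 to 24.22), −0.73 ± 0.19 (adjusted p = 0.0164). In these 3 genes the groups overlapped, and all knockout libraries were below the wild type median.

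Other members that fell at 6 months included Kdm7a (−0.88 ± 0.24), Kdm4b (−0.59 ± 0.17), the SWI/SNF core subunit Smarcc1 (−0.66 ± 0.19), Chd1 (−0.81 ± 0.24), the histone methyltransferase Setd2 (−0.56 ± 0.17), the acetyltransferase Kat2b (−1.0 ± 0.31), the ISWI motor Smarca5 (−0.95 ± 0.29) and Tet3 (−0.67 ± 0.21), with adjusted p from 0.0213 to 0.0394. Dnmt3a went from a median of 108.5 CPM (66.81 to 201.3) to 79.59 (38.35 to 81.9), −0.60 ± 0.20 (adjusted p = 0.0478). Smarca2 alone rose: 32.07 to 56.96 CPM (median 44.58) in wild type and 51.58 to 67.64 (median 57.74) in knockout, 0.51 ± 0.14 (adjusted p = 0.0211).

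With the length trend removed 12 members passed (14%, against 11.4% of all genes), 11 of them among the 18. Kdm5b (−0.54, adjusted p = 0.00317), Kdm1a (−0.89, adjusted p = 0.0104), Ezh2 (−0.62, adjusted p = 0.0251) and Smarca2 (0.73, adjusted p = 0.00442) were among these, while Tet3 (−0.41, adjusted p = 0.107) and Dnmt3a (−0.36, adjusted p = 0.155) were not. Setd2 (−0.33, adjusted p = 0.0763) did not pass with the length trend removed either. Kdm5b, Kdm1a and Ezh2 passed in each of 18 fits without 1 library. Kdm7a and Smarca2 passed in 17 of these fits, Kdm4b and Smarcc1 in 16 and Chd1 in 14. Setd2 and Tet3 passed in only 10, and Kat2b and Smarca5 in only 9. The count of 18 did not hold so well: it was 5 without knockout library 3 or 5, 7 without knockout library 2, 8 without knockout library 6 or wild type library 2 or 8, 9 without wild type library 5 or 6, and 10 without wild type library 11. It was 8 with limma voom. Erythroid markers summed to a median of 233.1 CPM (30.1 to 876) in wild type and 22.71 (2.58 to 162.9) in knockout granulosa libraries at this age, and immune markers to 819 (211.4 to 4228) and 537.9 (189.7 to 977.9); their part in these results was not tested.

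**Figure D4:**
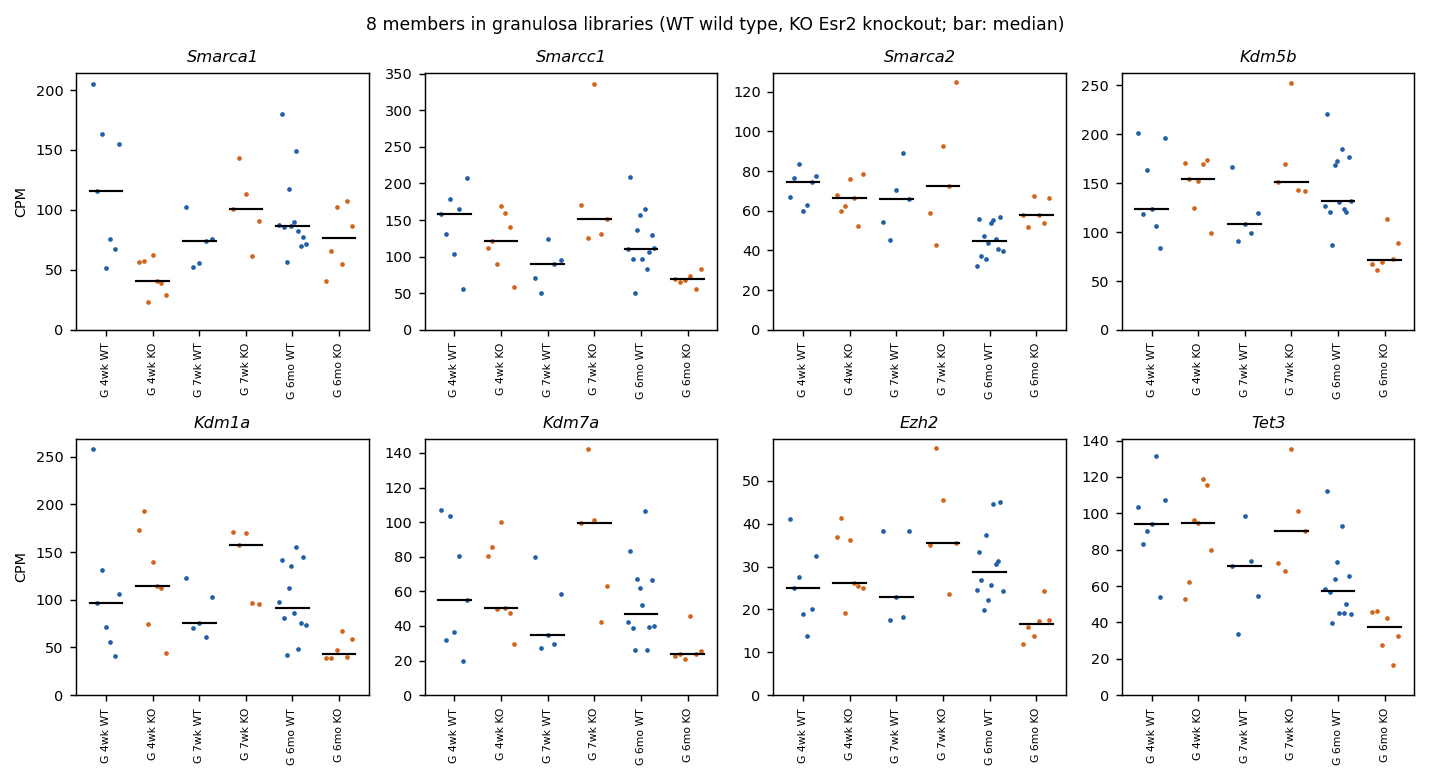
CPM of 8 members in granulosa libraries, 1 point per library, by age and genotype, with black bars for medians. Smarca1 is low in 4 week knockout libraries (median 40.42 CPM); Kdm5b, Kdm1a, Kdm7a, Ezh2, Smarcc1 and Tet3 are low in 6 month knockout libraries, and Smarca2 is above wild type there.

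Whether the genotype difference changed with age was tested directly in 1 model of all granulosa libraries. Of 88 members 7 passed, against 3.63% of 14307 genes: Kdm5b (adjusted p = 0.0136), Smarca1 (0.0145), Smarcc1 (0.0213), Smarca5-ps (0.0388), Ezh2 (0.0459), Setd3 (0.0465) and Kdm7a (0.0471). Kdm5b differed by 0.03 ± 0.20, 0.49 ± 0.24 and −0.78 ± 0.15 between knockout and wild type at 4 weeks, 7 weeks and 6 months. Smarcc1 differed by −0.28 ± 0.25, 1.01 ± 0.31 and −0.66 ± 0.19, and Smarca1 by −1.47 ± 0.29, 0.43 ± 0.26 and −0.18 ± 0.22. The 7 week groups weighed heavily: the count was 2 without 7 week knockout library 3 or wild type library 2, 3 without knockout library 2 or wild type library 3 or 4, and 12 without knockout library 4. It was 3 with the length trend removed, or 3.41%, against 2.03% of all genes. Of 10 fits without 1 library, Kdm5b and Smarca1 passed in 10, Smarcc1 in 8, and Ezh2, Setd3 and Smarca5-ps in only 4 each.

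Oocytes showed no member past the threshold between genotypes at any age by edgeR, with 0 of 75, 0 of 78 and 0 of 77 tested at 4 weeks, 7 weeks and 6 months, while 0.00924%, 0.154% and 0.00818% of all genes passed. At an unadjusted p under 0.05 there were 3, 12 and 3 members (4%, 15.4% and 3.9%), close to the 3.24%, 16.8% and 3.24% of all genes, and DESeq2 called 1 member at 7 weeks. Leaving out 7 week knockout library 1 gave 1 member. None of 80 members passed for a genotype difference that changed with age in edgeR (9 at an unadjusted p under 0.05, 11.2% against 5.97% of all genes), nor did any of 13471 genes. Dnmt1 differed by −0.09 ± 0.16, 0.04 ± 0.17 and 0.09 ± 0.18 at the 3 ages, Dnmt3a by 0.11 ± 0.13, −0.12 ± 0.17 and 0.17 ± 0.21, and Tet3 by 0.32 ± 0.16, 0.10 ± 0.18 and 0.27 ± 0.31. Each of these 9 estimates was within about 2 SE of 0, so differences of that size were not detectable here. Among DNA methylation genes the smallest p was that of Uhrf1 at 7 weeks: 573.5 to 952.5 CPM (median 737.3) in 5 wild type and 719.6 to 1400 (median 976.7) in 12 knockout libraries, 0.54 ± 0.19 (adjusted p = 0.196).

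Many members of oocytes differed between ages. The counts of each cell type and age were deposited separately, so age and a difference in preparation or processing cannot be told apart here. Between 7 weeks and 6 months in wild type, 46 of 80 members passed, 4 higher and 42 lower, against 25.7% of 13471 genes (13.1% higher and 12.6% lower). Their median log2 difference was −0.86, against 0.07 over all genes. By role the falls were 16 of 23 remodellers, 11 of 16 methyltransferases, 8 of 15 demethylases, 3 of 8 acetyltransferases, 2 of 7 deacetylases and 2 of 11 DNA methylation genes. With the length trend removed 32 members passed (40%, against 20.3% of all genes), 29 of them among the 46, and the median was −0.45. Leaving out 7 week wild type library 1, whose log values correlated over genes with the oocyte median at 0.784 where the other 4 reached 0.934 to 0.974, gave 27. The summed oocyte markers also differed, with 13740 to 26150 CPM (median 23320) at 7 weeks and 23100 to 43450 (median 34050) at 6 months in wild type; their part in these results was not tested.

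Srcap, which places a histone variant into nucleosomes, had the smallest p. It ranged from 62.04 to 107.3 CPM (median 92.89) at 7 weeks and up to 24.6 CPM (median 10.99) at 6 months, without overlap, −2.55 ± 0.29 (adjusted p = 2.99e-08). Kmt2d, a writer of enhancer methylation, went from a median of 593 CPM (462.2 to 656.9) to 136.2 (59.75 to 253.9), −1.70 ± 0.22 (adjusted p = 4.64e-07). Both groups again stood apart. The acetyltransferases Kat6b (−1.21 ± 0.16) and Kat6a (−1.32 ± 0.21) and the remodeller Chd7 (−1.62 ± 0.24) fell too. Tet3 had 2242, 1339, 1751, 1267 and 1476 CPM in the 7 week wild type libraries and 184.4 to 1317 (median 463.6) in 11 at 6 months, −1.30 ± 0.21 (adjusted p = 1.68e-05), and −0.77 (adjusted p = 0.000228) with the length trend removed.

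The 4 that rose were Hat1, Dnmt3l, Tet1 and Setd4. Hat1 had 75.49, 68.98, 77.06, 68.58 and 85.23 CPM at 7 weeks and 121.8 to 201.2 (median 148.1) at 6 months, so every older library was above every younger one (1.27 ± 0.23, adjusted p = 6.74e-05; 1.103 with the length trend removed, adjusted p = 0.000172). Dnmt3l rose by 0.76 ± 0.20 (adjusted p = 0.00466), Tet1 by 0.91 ± 0.30 (adjusted p = 0.0202) and Setd4 by 0.62 ± 0.24 (adjusted p = 0.0473). Of 9 fits without 1 library, Hat1 and Dnmt3l passed in 9, Tet1 in 8 and Setd4 in only 2.

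Knockout oocytes share no library with wild type, but they were fitted in the same model and both genotypes of an age were deposited together. Age and a difference in preparation or processing therefore cannot be told apart in either genotype. Between 7 weeks and 6 months knockout oocytes gave 14 of 80 members (2 higher, 12 lower, against 5.78% of all genes, 3.31% higher and 2.47% lower). All 14 were among the 46 of wild type in the same direction. The overlap over all genes is not given here. Over all genes both contrasts fell with exon length (Spearman's rho −0.372 in wild type, −0.351 in knockout), and the part of this trend in the overlap was not tested. The shared falls, 28.6% of the wild type list, were Chd7, Chd8, Kat6a, Kat6b, Kat7, Kdm2a, Kdm2b, Kmt2d, Smarca4, Smarcc1, Srcap and Tet3, and the shared rises were Dnmt3l and Hat1. Tet3 ranged from 1028 to 2446 CPM (median 1540) in 12 libraries at 7 weeks and had 681.7, 479.8, 694.2 and 740.6 CPM at 6 months, −1.15 ± 0.26 (adjusted p = 0.00415). Hat1 had 143.1, 136.1, 153 and 116.3 CPM at 6 months, against 49.59 to 129.4 (median 74.32) at 7 weeks, 0.94 ± 0.22 (adjusted p = 0.00599). Removing the length trend gave 4 (5%, against 3.42% of all genes): Tet3, Hat1, Dnmt3l and Kat7. Without 6 month knockout library 1, 2 or 3 the count of 14 was 7, 5 or 6.

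From 4 weeks to 6 months, 19 of 80 members passed in wild type oocytes (2 higher, 17 lower) against 15.4% of all genes (8.31% higher, 7.1% lower), and 5 in knockout oocytes (all lower) against 2.27% (0.75% lower). Kmt2d (−1.73 ± 0.19), Srcap (−2.10 ± 0.25), Tet3 (−1.23 ± 0.18), the remodeller motor Ep400 (−0.91 ± 0.14), Kat6b (−0.76 ± 0.13) and Chd7 (−1.06 ± 0.20) had the smallest p among the falls, and Setd4 (0.73 ± 0.18) and Hat1 (0.56 ± 0.17) were the rises. Uhrf1 fell by 0.65 on the log2 scale (SE 0.16, adjusted p = 0.00317) in wild type. Removing the length trend gave 16 (20%, against 12.8% of all genes), 15 of them among the 19. The 5 of knockout, Tet3, Kat6b, Kmt2d, Smarca4 and Kdm6b, were all called in wild type as well (29.4% of the wild type falls); without 6 month knockout library 1 or 3 there was 1, without library 2 there were 2 and without library 4 there were 3, and 3 passed with the length trend removed (3.75%, against 1.71% of all genes). The overlap over all genes is again not given, and both contrasts fell with exon length over all genes (Spearman's rho −0.32 in wild type, −0.281 in knockout). Between 4 and 7 weeks 1 member passed in wild type oocytes, against 0.824% of genes (0.245% higher), and 0 in knockout in edgeR, against 0.0223% (7 at an unadjusted p under 0.05, 8.75% against 8.12% of all genes). That member was the SWI/SNF subunit Smarcc2, at 1.55 ± 0.31 (adjusted p = 0.0285); 1 passed with the length trend removed as well, and there were 0 without 7 week wild type library 1, 2 or 4, and 6 without library 5.

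Age comparisons in granulosa cells called few members in wild type. As in oocytes, age and a difference in preparation or processing cannot be told apart. They gave 0 of 88 members between 4 and 7 weeks and 0 between 7 weeks and 6 months in edgeR, against 0% and 1.36% of 14307 genes. At an unadjusted p under 0.05 there were 13 and 7 (14.8% and 7.95%), against 9.48% and 13.9% of all genes. From 4 weeks to 6 months 5 fell, against 8% of all genes (4.82% lower): Chd3 (−1.11 ± 0.24), Smarca2 (−0.59 ± 0.15), Kdm6b (−0.97 ± 0.27), and Setd1a (−0.76 ± 0.22) and Setd1b (−0.97 ± 0.29), both writers of active promoter methylation. Chd3 ranged from 50.66 to 187.4 CPM (median 95.99) at 4 weeks and from 30.16 to 75.94 (median 39.64) at 6 months. Chd3, Kdm6b and Setd1a passed with the length trend removed (3.41% of members, against 7.11% of all genes).

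Knockout granulosa cells gave 0 of 88 between 4 and 7 weeks in edgeR, against 0.0419% (10 at an unadjusted p under 0.05, 11.4% against 8.51% of all genes), 40 between 7 weeks and 6 months (4 higher, 36 lower), against 22% (10% higher, 12% lower), and 26 from 4 weeks to 6 months (3 higher, 23 lower), against 13.8% (6.58% higher, 7.19% lower). Kdm6b had the smallest p in both: its median was 55.21 CPM (36.93 to 128.5) at 4 weeks, 65.81 (44.09 to 184.2) at 7 weeks and 19.27 (6.06 to 29.28) at 6 months, so the 6 month knockout libraries lay below all younger ones. The differences were −1.90 ± 0.36 from 7 weeks and −1.60 ± 0.34 from 4 weeks. Mural and luteal markers summed to medians of 2422 CPM (1664 to 3441), 3586 (2552 to 6155) and 6782 (4306 to 10590) in these knockout libraries at 4 weeks, 7 weeks and 6 months, and granulosa markers to 6061, 3988 and 2932; their part in these results was not tested. Hdac1 rose by 0.97 ± 0.25 and 0.75 ± 0.22, and Smarca1 by 1.04 ± 0.27 from 4 weeks. Kdm4dl, whose reads may be shared with Kdm4d, rose by 2.65 ± 0.71 from 7 weeks. With the length trend removed 15 and 8 members passed (17% and 9.09%, against 15% and 10.1% of all genes), and Kdm6b, Hdac1, Kdm1a, Smarcd1 and Kdm4dl passed in both. Without 7 week knockout library 3 the 40 became 16. From 4 weeks to 6 months 68 of 88 members had the same sign in both genotypes. Of the 5 wild type falls, 4 (Chd3, Kdm6b, Setd1a and Setd1b) were also among the 23 of knockout, 80% and 17.4% of the 2 lists. Neither the agreement of sign nor the overlap over all genes is given here. Over all genes both contrasts fell with exon length (Spearman's rho −0.184 in wild type, −0.272 in knockout), and the part of this trend in the agreement was not tested. The contrast of genotype differences between 6 months and 7 weeks reached 25 members (3 higher, 22 lower) against 10.4% of 14307 genes (4.66% higher, 5.77% lower), and that between 6 months and 4 weeks reached 0 in edgeR, against 0.657% (12 at an unadjusted p under 0.05, 13.6% against 10.2% of all genes). Removing the length trend gave 6 in place of 25, all lower, or 6.82% of members against 4.98% of all genes, and gave 1 in place of the 0. Leaving out 7 week wild type library 2 or 4 gave 3 or 9 in place of 25, and leaving out 7 week knockout library 2 or 3 gave 13 or 5.

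**Figure D5:**
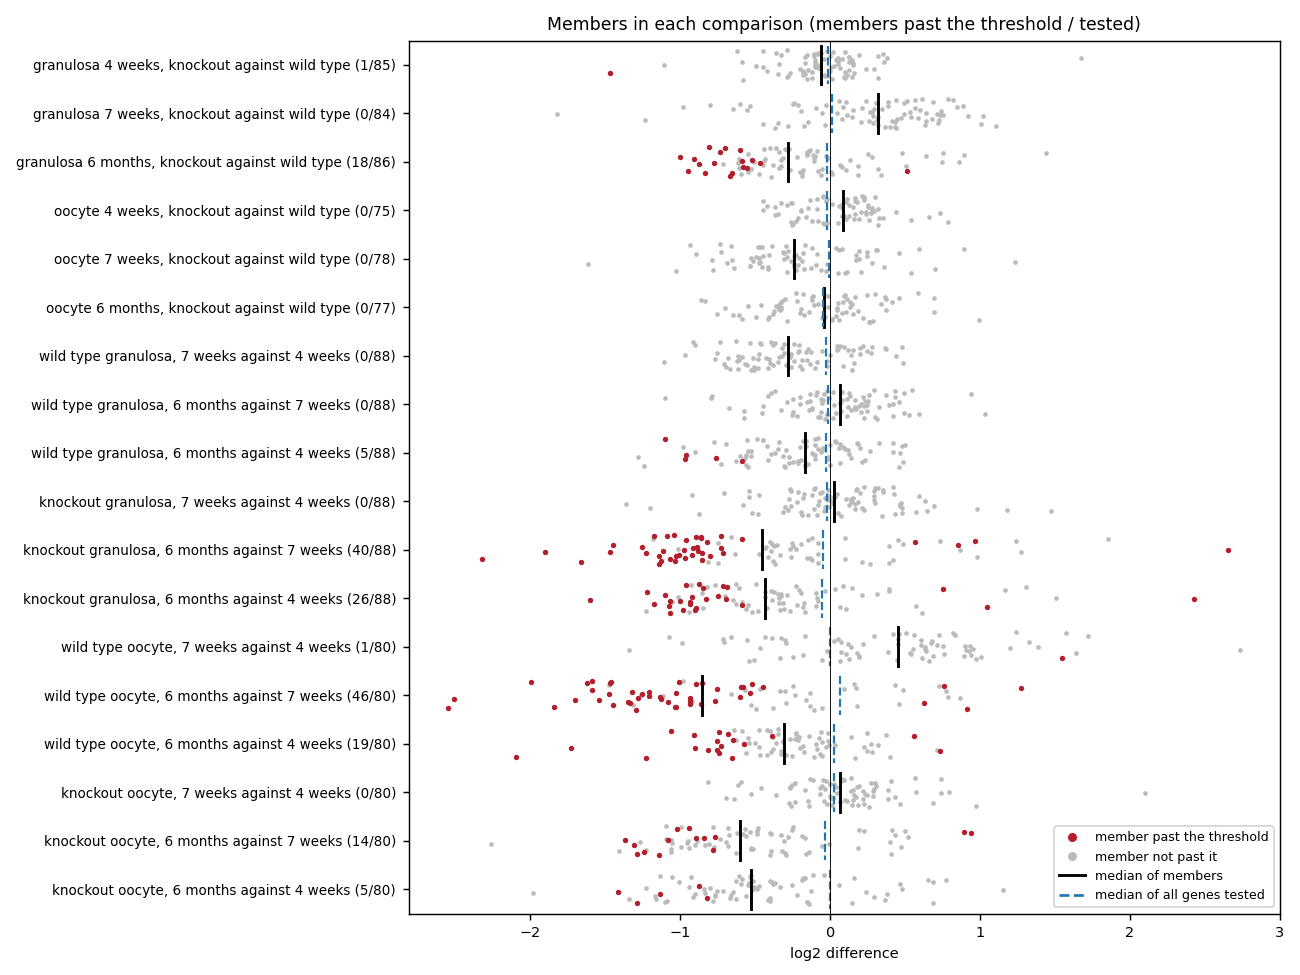
Log2 difference of each tested member (1 point each) in the 6 genotype and 12 age comparisons, with red points past the threshold, black bars for the members' median and dashed blue bars for the median of all genes tested. The black bar lies farthest from the blue one in wild type oocytes between 7 weeks and 6 months (−0.86 against 0.07), and genotype comparisons in oocytes hold no red point.

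A list of 134 other chromatin genes (Polycomb partners, readers of acetylation, histone chaperones, remodeller subunits and others) was counted in the same fits. Between genotypes in 6 month granulosa cells 2 of 127 tested were higher and 19 lower (16.5%, against 12.6% of all genes), with a median of −0.25; examples were Baz1a (−1.10 ± 0.27), Nsd1 (−0.50 ± 0.13), Brd7 (−0.57 ± 0.15) and the chaperone Nap1l1 (−0.69 ± 0.20). In 4 week granulosa cells 1 of 128 passed (0.781%, against 2.36% of all genes), Jarid2, a Polycomb partner (−0.85 ± 0.22). In wild type oocytes between 7 weeks and 6 months 10 of 126 were higher and 45 lower (43.7%, against 25.7% of all genes), with a median of −0.45, among them Baz2a (−1.59 ± 0.22), Bptf (−1.15 ± 0.17), Arid1a (−1.25 ± 0.19) and Chaf1a, which delivers histones behind the replication fork (−1.47 ± 0.25). Between genotypes in oocytes 0 passed at any age by edgeR.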

How the data were processed

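RNA of granulosa cells and oocytes was counted per gene in 93 libraries. The authors deposited expected counts per gene, 1 table for each cell type and age; the submitters' processing notes name Partek, STAR, DESeq2 and mm10 without versions, and strand and multimapping settings are not given in the sources used here. The authors' normalised tables were not used. Expected counts were rounded, and 0 columns belonged to other samples. Library sizes were the column totals, 702726 to 7751953. Tests used edgeR 4.0.16 in R 4.3.3 (filterByExpr, TMM scaling, robust quasi-likelihood F test, Benjamini-Hochberg adjustment over all genes tested, threshold 0.05). Every adjusted p without another tool's name comes from it, and SE is the log2 difference divided by the square root of F. Genotypes were compared within each of 6 tables; ages, and changes of the genotype difference with age, in 1 model of 6 groups per cell type; cell types in 1 model of 4 groups per age, where a member counts when called in the same direction at all 3 ages. Models over several tables keep genes listed in all of them. CPM in the text are counts over plain library totals, without the TMM scaling of the fits. CPM and fitted differences between cell types therefore need not match.

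Members, lists and markers were chosen with earlier results of these data known. Named genes were those with the smallest p (up to 12 per genotype comparison and 6 per direction between ages), the 10 largest cell type differences each way, the DNA methylation genes in all groups and the highest 2 per role by length. Paralogs and complex partners set beside a named gene, genes whose groups did not overlap and genes of the role lists were added after their values were seen. The scripts were tested on simulated data. A knockout column of 7 week oocytes joins 2 sample numbers in its name and was kept as a library of that group without a number. No 2 of the libraries were identical in 4278 pairs compared. Same-numbered libraries paired only between genotypes in 7 week oocytes (4 pairs, each correlation of deviations from 0.116 to 0.665). Alternatives were other scaling, no low-count filter, DESeq2 1.42.0, limma voom (limma 3.58.1), a replicate block, removal of length or GC trends, removal of shallow libraries or of that column, leaving out each library, and, chosen after the data were seen, absent genes set to 0, granulosa libraries with oocyte markers left out and the alternatives for the contrasts of the genotype difference between ages.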

Additional observations from a re-analysis of the deposited data

Results flagged for a closer look

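In 8 of 77 gene and group pairs examined, 1 library lay far from the others of its group; chance flags about 1 in 20 such groups. In granulosa cells, 6 month knockout library 4 was high for Uhrf1 (20.96 CPM against a group median of 9.61), Kdm7a (45.5 against 23.69) and Chd1 (30.16 against 16.65). Kdm7a and Chd1 were lower in knockout at that age, and this library had the highest knockout value of both. Uhrf1 was also high in 4 week wild type granulosa library 6 (33.33 against 8.19), the library with the highest summed oocyte markers (904.7 CPM).

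In oocytes Dnmt1 had 1407 CPM in 4 week knockout library 4 (median 898.1), and Dnmt3b had 60.53 in 4 week knockout library 6 (median 28.1). Dnmt3a had 1279 CPM in 7 week wild type library 1 (median 725.4), the library least like the oocyte median, and Tet1 had 21.4 in 6 month knockout library 3 (median 11.68).

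The genotype difference changed with age in granulosa cells for 7 members in edgeR's test of the difference itself. The adjusted p was 0.0136 for Kdm5b, 0.0145 for Smarca1, 0.0213 for Smarcc1, 0.0388 for the pseudogene Smarca5-ps, 0.0459 for Ezh2, 0.0465 for Setd3 and 0.0471 for Kdm7a. Ezh2 differed between knockout and wild type by 0.19, 0.49 and −0.73 on the log2 scale at 4 weeks, 7 weeks and 6 months, Setd3 by −0.12, 0.73 and −0.53, and Kdm7a by 0.00, 0.92 and −0.88. The tests of Ezh2, Setd3 and Smarca5-ps each passed in only 4 of 10 fits without 1 library.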

How the results depend on the processing

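No alternative run turned the direction of a named member: 550 of the values stayed on their side of the threshold and 65 no longer passed. Among the counts of members called, apart from single libraries left out, 129 stayed within 1.5 times the reported one and 27 did not. A count of 0 that stayed at 0 is among the 129, which says little of how stable the other counts are. With the length trend removed, the granulosa genotype difference that changed with age gave 3 in place of 7, its contrasts of 6 months with 7 and 4 weeks gave 6 in place of 25 and 1 in place of 0, knockout granulosa cells gave 8 in place of 26 (6 months against 4 weeks) and 15 in place of 40 (against 7 weeks), knockout oocytes gave 3 in place of 5 and 4 in place of 14, and wild type granulosa cells gave 3 in place of 5 (6 months against 4 weeks). Limma voom gave 2, 8, 4, 14 and 2 for 4 week granulosa cells (1), 6 month granulosa cells (18), the change with age (7), its contrast of 6 months with 7 weeks (25) and wild type oocytes between 4 and 7 weeks (1). DESeq2 gave 2 in 4 week granulosa cells and 1 each in 7 week granulosa cells and 7 week oocytes (both 0). The GC trend removed gave 2 in 4 week granulosa cells, DESeq2 factors in edgeR gave 4 for the change with age, and absent genes set to 0 gave 4 in wild type oocytes between 4 and 7 weeks. The cause of these moves was not tested. Alternatives for the 2 contrasts were chosen after the data were seen.

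The replicate block, over numbers that pair only the 7 week oocytes, left 0 members there. Elsewhere the numbers are shared without a pairing: the block gave 2 in 4 week and 3 in 6 month granulosa cells (fewer libraries, since 6 wild type libraries have no partner), 0 for the change with age, 11 for its contrast of 6 months with 7 weeks, 3 in wild type granulosa cells from 4 weeks to 6 months, 0 in wild type oocytes between 4 and 7 weeks, and 2 and 3 in knockout oocytes at 6 months against 4 and 7 weeks. It changed no other count by over 1.5 times.

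Leaving out 1 library at a time gave 1 to 2, 0 to 0 and 5 to 19 members between genotypes in granulosa cells at 4 weeks, 7 weeks and 6 months, 0 to 1 in 7 week oocytes and 2 to 12 for the change with age in granulosa cells (3 to 29 for its contrast of 6 months with 7 weeks). Between ages it gave 5 to 6 in wild type and 25 to 26 in knockout granulosa cells from 4 weeks to 6 months, 16 to 40 in knockout from 7 weeks, and in oocytes 0 to 6, 27 to 45 and 18 to 21 in wild type (4 to 7 weeks, 7 weeks to 6 months, 4 weeks to 6 months) and 5 to 16 and 1 to 6 in knockout (to 6 months from 7 and from 4 weeks). The cell type counts stayed at 50 to 54 in wild type and 54 to 57 in knockout. Genes at a few counts in the shallowest libraries are not resolved at this depth.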
